A study of Mus musculus with 6 samples.

Results

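The nuclear receptors described here are 33 mouse genes of the hormone and lipid receptor family, taken by gene symbol from a liver RNA-seq table, with the REV-ERB clock receptors and HNF4 alpha outside the set. Rows were matched to symbols by Ensembl gene identifier, and all 33 receptors were found among the 55802 rows of the table. The samples were 6 liver RNA preparations from wild-type (WT) C57BL/6 mice, 3 treated with carbon tetrachloride (CCl4), a hepatotoxin used to induce liver fibrosis, and 3 treated with oil as the control. The labels give no dose, duration, age or sex, and they do not say whether 1 animal stands behind each library. The p-values below therefore rest on library-to-library spread, which may be technical. Each library held between 18929972 and 20042731 counts. CCl4 replicate 3 stood apart from the other CCl4 libraries on the second principal component of all genes, which held 8.68% of the variance, against 77.2% on the first, which separated the groups.

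Nuclear receptors are transcription factors that bind a small lipophilic molecule, or in the case of orphan receptors no known physiological ligand, and sit on short DNA half-sites near their target genes. Many of those that matter most in liver (the PPARs, LXRs, FXR, PXR, CAR, retinoic acid and thyroid hormone receptors) bind DNA as a dimer with a retinoid X receptor. In hepatocytes they set fatty acid oxidation, bile acid synthesis, sterol export, drug metabolism and the response to fed and fasted hormones. Stellate cells, the vitamin A storing cells that become matrix-producing myofibroblasts in fibrosis, use retinoic acid receptors and PPAR gamma.

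Most receptor transcripts that moved were lower in CCl4 livers. Of the 33 receptors, 32 had enough counts to be tested, and 15 of them fell, 3 rose (Rarb, Rarg and Hnf4g) and 14 did not pass an adjusted p of 0.05 (edgeR quasi-likelihood test with Benjamini-Hochberg adjustment over 15579 genes, the source of each adjusted p given here). Among all genes tested, 20.1% were called lower, 21.2% higher and 41.3% either way, against 46.9% of the tested receptors lower, 9.38% higher and 56.2% either way. The median log2 fold change, CCl4 over control, was -0.26 for the receptors and 0.000564 for all genes, and the median size of the log2 fold change was 0.40 for the receptors and 0.277 for all genes. In 21 of the 32 receptors no CCl4 library overlapped a control library, 17 of them with CCl4 lower, while 54.0% of all genes showed no overlap. Overlap was judged on levels scaled as in the fit reported, here and below, and was not recounted under other scalings. The split of calls depended on scaling, for the receptors and for all genes. With libraries scaled by their totals alone, which moved the median of all genes to 0.15, 7 receptors were higher and 12 lower. In that setting 4824 of the 15579 genes tested were higher and 1676 lower, against 3303 higher and 3124 lower in the fit reported. Without CCl4 replicate 3 the split was 2 higher and 14 lower.

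**Figure D1:**
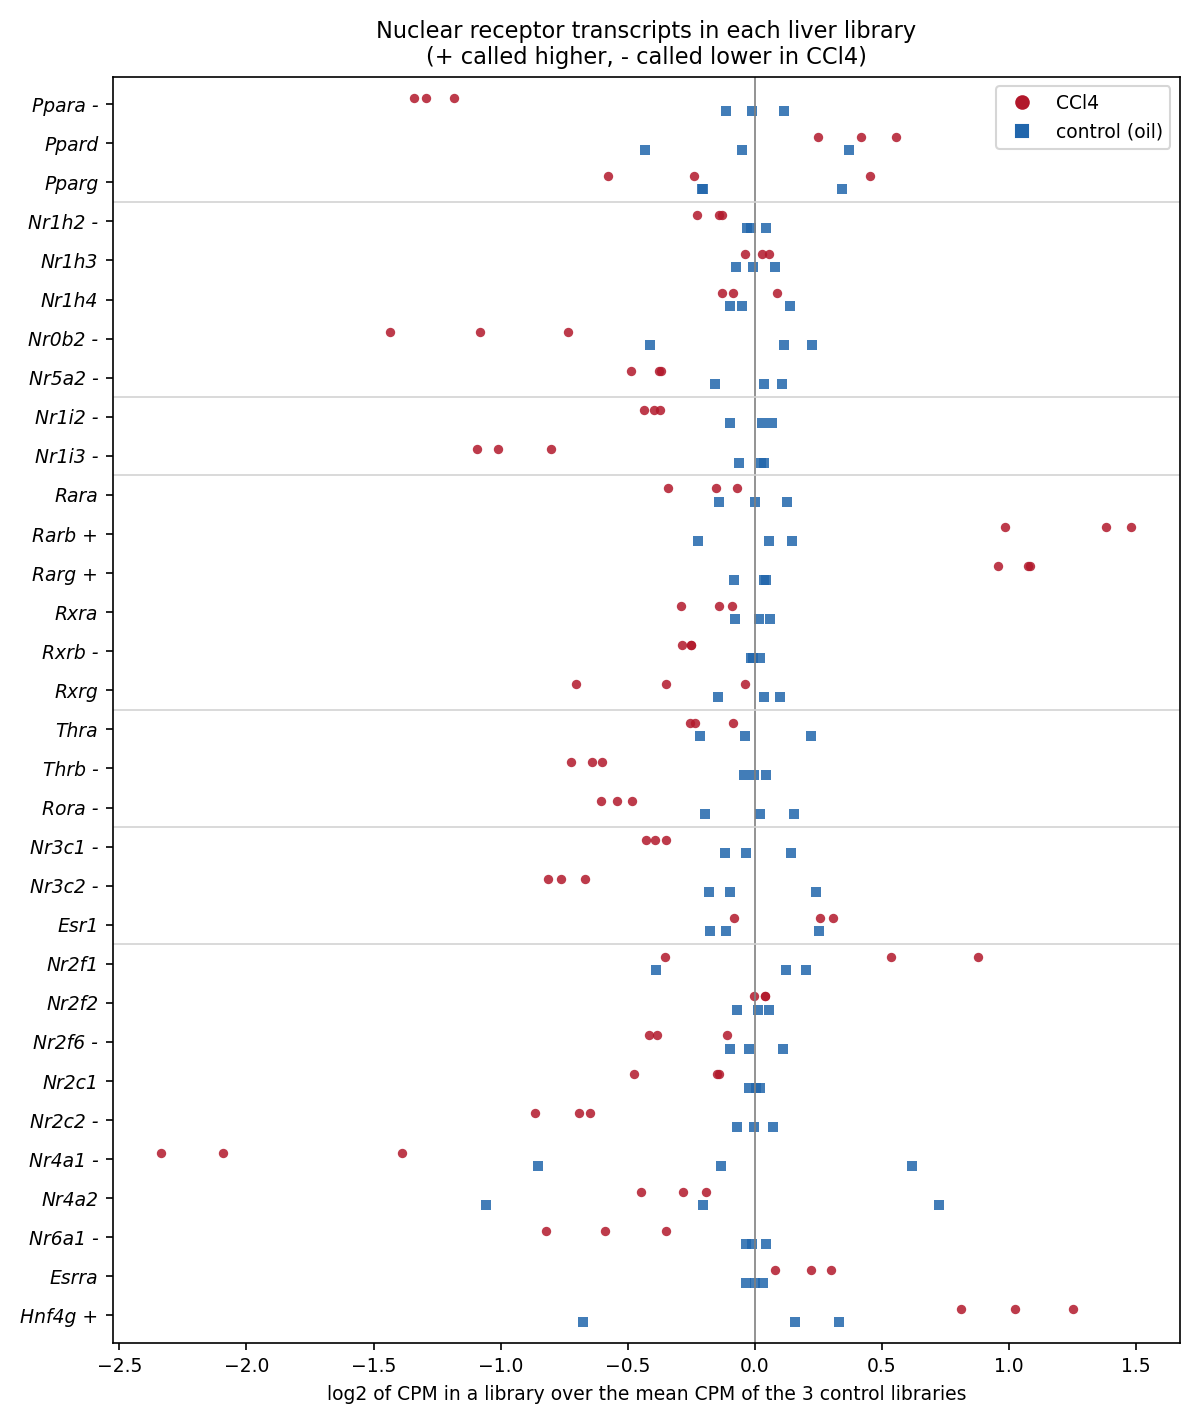
CPM of each tested nuclear receptor in each library as log2 of its ratio to the mean of the 3 control libraries, with CCl4 as circles and control (oil) as squares, and rows grouped by ligand class. Signs after a name mark a call; Ppara, Nr1i3 and Thrb sit wholly left of their controls, and Rarb and Rarg wholly right.

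Marker transcripts of several cell types differed between the groups as well. Of 12 stellate cell and myofibroblast markers 8 rose and none fell. Their summed level was 1114 to 1194 CPM in CCl4 livers and 316 to 380.4 CPM in controls. CPM are counts scaled to library totals that were adjusted by TMM, the scaling of the fit. Col3a1, a fibrillar collagen gene, averaged 391 ± 27.1 CPM in CCl4 livers and 54.7 ± 12.2 CPM in controls (SD, n = 3 each), and Lox, a collagen cross-linking enzyme gene, rose by 3.05 on the log2 scale (edgeR adjusted p = 1.03e-05). Of 12 macrophage and Kupffer cell markers 10 rose and 1 fell, with summed levels of 977 to 1064 CPM in CCl4 livers and 375 to 472 CPM in controls. Among these, Lyz2 (lysozyme) averaged 298 ± 26.0 CPM in CCl4 livers and 69.5 ± 10.2 CPM in controls, and Ctss (cathepsin S) had the smallest adjusted p (log2 fold change 2.00, edgeR adjusted p = 6.38e-07). Of 8 cholangiocyte markers 7 were tested, 5 rose and none fell. Their summed levels were 274 to 359 CPM in CCl4 livers and 71.0 to 114 CPM in controls. Most of that sum was Spp1 in every library (values below), so it says little of the other cholangiocyte markers. Krt7, a bile duct keratin, rose by 2.00 on the log2 scale (edgeR adjusted p = 5.30e-04).

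Hepatocyte markers lay close together by sum, at 97579 to 101105 CPM in CCl4 livers and 96923 to 104929 CPM in controls. Most of that sum was Alb, so it says little of the other markers. The median log2 fold change of the list was -0.27. Of these 11 markers 1 rose and 6 fell, but 2 fell without control replicate 3 and none rose without CCl4 replicate 2, control replicate 1 or control replicate 3; with upper quartile scaling 2 fell and with library size alone 1. Alb (albumin) averaged 73971 ± 1664 CPM in CCl4 livers and 71800.2 ± 3609 CPM in controls, and Apob, the structural protein of very low density lipoprotein, fell by 0.36 on the log2 scale (edgeR adjusted p = 0.00161). Endothelial markers summed to 406 to 461 CPM in CCl4 livers and 373 to 401 CPM in controls, with 3 of 12 higher and 1 lower (5 higher and 0 lower with upper quartile scaling, 7 and 0 with library size alone). Stab2 did not pass (edgeR adjusted p = 0.334), Cd34 rose by 1.66 (edgeR adjusted p = 3.12e-04), and the lower call was lost without CCl4 replicate 2 or 3 or control replicate 1 or 2. Lymphocyte markers, 8 of 10 tested, summed to 11.8 to 14.5 CPM in CCl4 livers and 11.9 to 13.7 CPM in controls, with 1 called higher, Cd79a (edgeR adjusted p = 0.0366), which was lost without any 1 of the 6 libraries (edgeR adjusted p of 0.0560 to 0.0894). None of the listed markers of stellate cells, macrophages, cholangiocytes, endothelium or lymphocytes was at 0 in all libraries. The part of these cells in the receptor values was not tested, and in bulk tissue fewer cells of a type and less RNA per cell cannot be told apart.

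Levels of different receptors were compared as CPM per kb of exon, and they spanned a wide range. Rxra, the shared dimer partner, was the most abundant in both groups, at 68.0 ± 4.88 CPM per kb of exon in CCl4 livers and 76.6 ± 3.78 CPM per kb in controls. FXR (Nr1h4) came next at 51.4 CPM per kb in CCl4 livers and 52.8 CPM per kb in controls. In controls the ranges of Nr1h4 and Nr0b2 overlapped, as did those of Nr0b2 and Nr1h3, Nr1h3 and Ppara, and Ppara and Nr1i2. In CCl4 livers Rxra, Nr1h4 and Nr1h3 (34.0 CPM per kb) each stood clear of the next, Nr1i2 and Nr0b2 overlapped (22.6 CPM per kb for Nr1i2 and 22.2 for Nr0b2), and so did Ppara and Nr3c1 (13.1 CPM per kb for Ppara and 12.9 for Nr3c1). At the low end were Vdr, Nr4a2, Nr2f1 and Hnf4g, all under 0.30 CPM per kb in both groups.

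Calls were also counted by level. Of the 16 receptors with the higher mean level per length, 11 fell and 0 rose, and of the 16 with the lower level, 4 fell and 3 rose. This difference was not tested, and 1 of the rises, Hnf4g, lost its call when any 1 library was left out. The share of calls over all genes at matching levels was not computed. Whether other genes split by level in the same way therefore cannot be told here. The rank of Rarg was 21 in CCl4 livers and 26 in controls. Nr1i3 was ranked 15 in CCl4 livers and 11 in controls, and Nr4a1 29 in CCl4 livers and 24 in controls. These ranks are a description, and neighbouring receptors often overlapped.

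**Figure D2:**
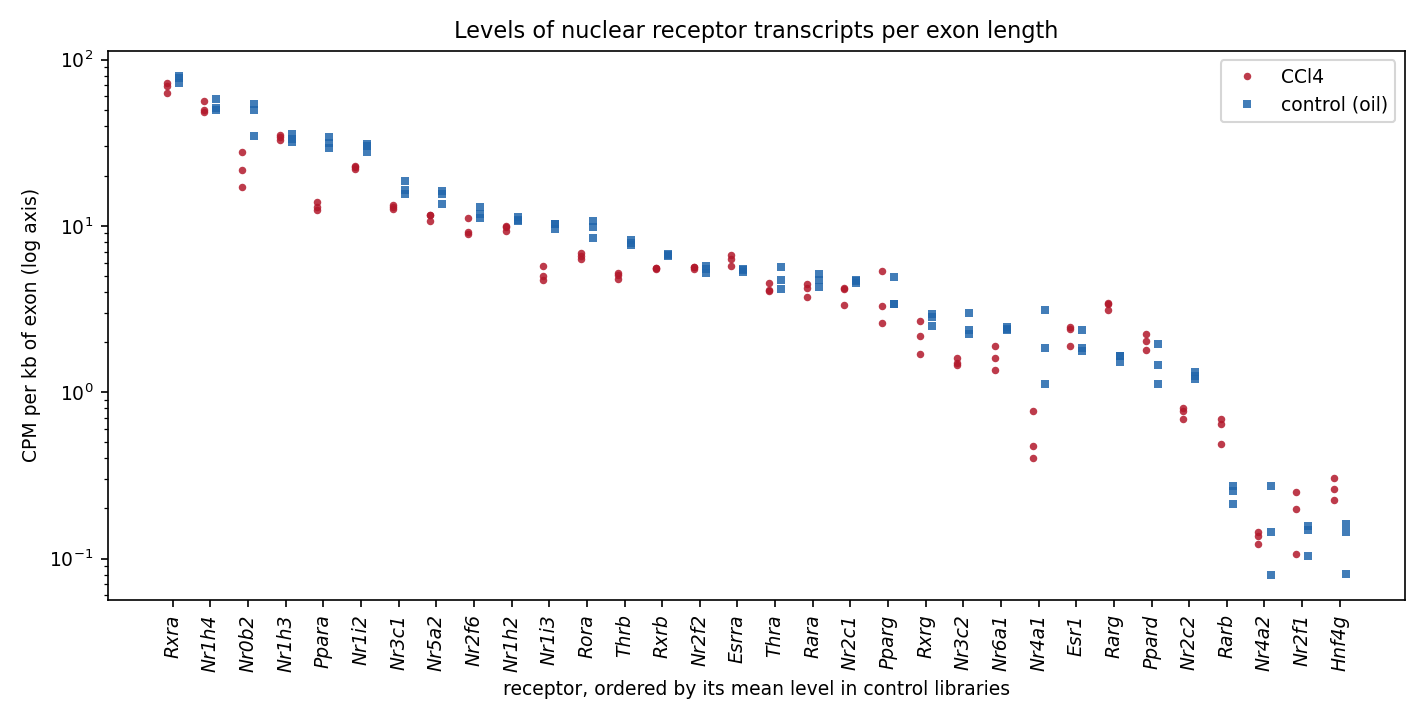
CPM per kb of exon on a log axis for the 32 tested receptors in each library, ordered by their mean in controls, with CCl4 circles left of control squares. Rxra leads both groups, and the CCl4 points lie below the control points for Ppara, Nr1i3, Thrb and Nr4a1 and above them for Rarg, Rarb and Hnf4g.

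Fatty acid receptors came apart by isotype. PPAR alpha (Ppara), the fatty acid sensor that drives hepatic oxidation genes in fasting, had 48.0, 49.6 and 53.5 CPM in CCl4 livers, against 112, 121 and 132 CPM in controls. Every CCl4 library lay below every control, and the log2 fold change was -1.27 (95% interval -1.43 to -1.11, edgeR adjusted p = 3.91e-06). PPAR delta (Ppard), a broadly expressed relative, had 15.2, 16.7 and 13.5 CPM in CCl4 livers, against 11.0, 14.7 and 8.43 CPM in controls. Control replicate 2 lay within the CCl4 range, the log2 fold change was 0.41 (edgeR adjusted p = 0.124), and without that library it was 0.64 and passed (edgeR adjusted p = 0.00951). PPAR gamma (Pparg), the adipocyte and quiescent stellate cell isotype, had 7.71, 9.74 and 15.8 CPM in CCl4 livers, against 9.95, 9.996 and 14.6 CPM in controls. The groups overlapped throughout, with replicate 3 the highest in each (log2 fold change -0.05, interval -0.79 to 0.68, edgeR adjusted p = 0.904).

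The PPAR alpha target list held 30 genes, all tested, of which 15 fell and 4 rose, with a median log2 fold change of -0.30. Fabp1, the liver fatty acid binding protein, had 1096, 1377 and 1078 CPM in CCl4 livers, against 2902, 2646 and 3146 CPM in controls (log2 fold change -1.29, edgeR adjusted p = 3.53e-05). Acot2, a mitochondrial acyl-CoA thioesterase gene with a close paralog that can share its reads, rose by 1.15 (edgeR adjusted p = 3.03e-04). The PPAR gamma list split differently. Of 14 genes 10 were tested, 2 rose and 2 fell (median -0.40), but 7 fell without control replicate 2. The summed level of the list was 719 to 753 CPM in CCl4 livers and 351 to 384 CPM in controls. Lpl, given below, was most of that sum in CCl4 livers but not in controls, so the sum says little of the other genes. The list includes the adipocyte genes Adipoq and Plin1 described below, and the part of adipose RNA in its median was not tested. Lpl, the lipoprotein lipase gene, had 406, 398 and 407 CPM in CCl4 livers, against 74.2, 64.3 and 71.4 CPM in controls (log2 fold change 2.53, edgeR adjusted p = 1.08e-07). Pnpla2, the adipose triglyceride lipase gene, fell by 0.37 (edgeR adjusted p = 9.22e-04).

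Adipocyte transcripts varied between the control libraries, as the genes below show, picked with their values known. Adipoq, the adiponectin gene, had 0, 0.0495 and 0 CPM in CCl4 livers, against 4.63, 0.216 and 6.31 CPM in controls. Plin1, the adipocyte lipid droplet protein gene, had 0, 0 and 0.0491 CPM in CCl4 livers, against 1.86, 0.162 and 5.46 CPM in controls. Control replicates 1 and 3 carried these transcripts and control replicate 2 nearly none. Pparg, at 9.95, 9.996 and 14.6 CPM in control replicates 1, 2 and 3, was highest in control replicate 3, where Adipoq and Plin1 were also highest, and was about equal in the other controls. The log2 fold change of Pparg was 0.15 without control replicate 3. It was also 0.15 without CCl4 replicate 1, where Adipoq and Plin1 were at 0. With each of the 6 libraries left out in turn it ranged from -0.399 to 0.151. The part of adipose RNA in its values was not tested.

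Among the sterol and bile acid receptors LXR alpha and FXR did not pass the test, while SHP and LRH-1, which act downstream of them in bile acid control, fell. LXR alpha (Nr1h3), the oxysterol receptor of hepatocytes and macrophages, had 88.0, 82.5 and 86.4 CPM in CCl4 livers, against 84.2, 80.5 and 89.4 CPM in controls. Its libraries were interleaved, with a log2 fold change of 0.02 (interval -0.11 to 0.14, edgeR adjusted p = 0.852). LXR beta (Nr1h2), the ubiquitous isotype, had 31.2, 33.2 and 33.5 CPM in CCl4 livers, against 35.8, 37.8 and 36.2 CPM in controls. The groups did not overlap and the log2 fold change was -0.16 (edgeR adjusted p = 0.0481), but the call held without CCl4 replicate 3 only (0.0497) and was lost without CCl4 replicate 1 (0.162), CCl4 replicate 2 (0.0910), control replicate 1 (0.0699), control replicate 2 (0.108) and control replicate 3 (0.0753), and in 12 of 14 alternatives in all. FXR (Nr1h4), the bile acid receptor, had 111, 115 and 129 CPM in CCl4 livers, against 118, 134 and 114 CPM in controls. They overlapped fully (log2 fold change -0.04, interval -0.22 to 0.14, edgeR adjusted p = 0.726).

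SHP (Nr0b2), a receptor without a DNA-binding domain that FXR induces and that represses bile acid synthesis genes, had 31.3, 24.6 and 19.3 CPM in CCl4 livers, against 60.9, 56.4 and 39.2 CPM in controls. Every CCl4 library lay below every control and replicate 3 was the lowest in each group. The log2 fold change was -1.06 (interval -1.68 to -0.44, edgeR adjusted p = 0.0208), a call lost without CCl4 replicate 2 (0.0682), CCl4 replicate 3 (0.0576) or control replicate 2 (0.0672), and with no filter on low counts (0.0659). LRH-1 (Nr5a2), which activates bile acid synthesis genes and is held back by SHP, had 68.4, 68.9 and 63.5 CPM in CCl4 livers, against 91.3, 79.8 and 95.8 CPM in controls. Its groups did not overlap (log2 fold change -0.41, edgeR adjusted p = 0.00179).

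Of 14 LXR target genes 4 rose and 5 fell (median -0.03), and the directions differed between sterol exporters. Abcg1, a cholesterol exporter of macrophages and other cells, had 20.1, 21.8 and 18.8 CPM in CCl4 livers, against 8.36, 8.21 and 8.59 CPM in controls (log2 fold change 1.27, edgeR adjusted p = 1.13e-05). Abcg8, a subunit of the hepatocyte canalicular sterol exporter, had 27.97, 28.3 and 25.4 CPM in CCl4 livers, against 112, 102 and 135 CPM in controls (log2 fold change -2.09, edgeR adjusted p = 6.40e-06). Apoe, the apolipoprotein gene with the most counts among those called, fell by 0.33 (edgeR adjusted p = 0.00212). Of 16 FXR targets 13 were tested, 9 fell and 1 rose (median -0.44). The falls include SHP (Nr0b2), already given above as a receptor. The list holds genes that FXR induces and genes that SHP represses, so its count of falls has no single reading for FXR. Insig2, a brake on sterol synthesis, fell by 0.89 (edgeR adjusted p = 5.64e-05) and Abcb11, the bile salt export pump gene, by 0.63 (edgeR adjusted p = 7.60e-04). The gene that rose was Cyp7a1, which encodes the enzyme of the rate-limiting step from cholesterol to bile acids and is repressed by SHP, with 193, 204 and 329 CPM in CCl4 livers, against 41.9, 106 and 51.9 CPM in controls. Its call (log2 fold change 1.86, edgeR adjusted p = 0.0338) was lost without CCl4 replicate 1 (0.0701), CCl4 replicate 2 (0.0743), CCl4 replicate 3 (0.0971), control replicate 1 (0.0674) or control replicate 3 (0.102).

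Both xenobiotic receptors fell. PXR (Nr1i2), which senses drugs and steroids and induces Cyp3a genes, had 57.9, 58.8 and 56.3 CPM in CCl4 livers, against 77.6, 79.8 and 71.2 CPM in controls. CAR (Nr1i3), which induces Cyp2b genes, had 25.4, 20.8 and 22.0 CPM in CCl4 livers, against 42.4, 45.0 and 45.5 CPM in controls. Neither receptor's groups overlapped, and the log2 fold changes were -0.40 for Nr1i2 (edgeR adjusted p = 5.69e-04) and -0.96 for Nr1i3 (edgeR adjusted p = 2.68e-05). Of the exon bases of Nr1i3, 74.9% lie opposite Tomm40l, and since the strand setting of the counting is not given, reads of the pair cannot be told apart; Tomm40l averaged 8.81 CPM in CCl4 livers and 9.07 CPM in controls (edgeR adjusted p = 0.842).

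Their target list went mostly the other way. Of 24 CAR and PXR target genes 23 were tested, 13 rose and 5 fell (median 0.38), and without control replicate 1 the number that rose was 8. The part of CAR, PXR or other regulators in these rises and falls was not tested, so the count has no single reading for these receptors. Gsta1, a glutathione transferase gene with a near-identical copy that makes its own value uncertain, had 15.2, 21.6 and 17.6 CPM in CCl4 livers, against 1.86, 3.03 and 2.07 CPM in controls (log2 fold change 2.97, edgeR adjusted p = 1.40e-05). Cyp2b10, the classical CAR target and an example chosen after its values were seen, had 722, 530.01 and 282 CPM in CCl4 livers, against 70.3, 95.4 and 77.1 CPM in controls (log2 fold change 2.66, edgeR adjusted p = 0.00686). All CCl4 libraries lay above all controls, while CAR itself lay below in every one. The Cyp3a genes, whose close copies can share reads, split. Cyp3a25 had 899.6, 785 and 839.6 CPM in CCl4 livers, against 1362, 1546 and 1489.8 CPM in controls (log2 fold change -0.80, edgeR adjusted p = 5.64e-05). Cyp3a11, the most abundant gene called in the list, had 7691, 6549 and 7989.7 CPM in CCl4 livers, against 4956, 5474 and 6596 CPM in controls. Its groups overlapped (log2 fold change 0.38, edgeR adjusted p = 0.0265), a call lost without CCl4 replicate 1 (0.0798), CCl4 replicate 3 (0.0922), control replicate 1 (0.104) or control replicate 2 (0.0863).

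The retinoic acid receptors held both of the rises that kept their call under every alternative tried. RAR beta (Rarb), whose gene is itself a classical retinoic acid target, had 3.63, 2.57 and 3.39 CPM in CCl4 livers, against 1.44, 1.35 and 1.11 CPM in controls. RAR gamma (Rarg), the third retinoic acid receptor, had 14.6, 13.4 and 14.5 CPM in CCl4 livers, against 6.49, 7.08 and 7.05 CPM in controls. All CCl4 libraries lay above all controls for both genes, with log2 fold changes of 1.29 for Rarb (interval 0.80 to 1.78, edgeR adjusted p = 0.00129) and 1.04 for Rarg (interval 0.83 to 1.25, edgeR adjusted p = 4.54e-05). RAR alpha (Rara), the most abundant isotype, had 18.5, 19.6 and 16.2 CPM in CCl4 livers, against 22.4, 18.6 and 20.6 CPM in controls, which overlapped (log2 fold change -0.18, interval -0.40 to 0.04, edgeR adjusted p = 0.165). The exons of Rarb lie opposite Top2b over 38.4% of their bases; Top2b averaged 63.1 CPM in CCl4 livers and 73.1 CPM in controls, lower in CCl4 (log2 fold change -0.21, edgeR adjusted p = 0.00672).

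The promoters of the receptors were searched for retinoid half-sites, since the receptors that rose include the RARs. RefSeq windows of the GRCm38.p6 assembly, 250 bases before to 50 bases after each gene start, were found for 30 of the 33 receptors (45 windows) among 32851 windows in all. The half-site was AGGTCA or a variant of it, with AGTTCA counted as the first variant, then GGGTCA as another, and GGTTCA as the last. The motif was a direct repeat of 2 such half-sites with 5 bases of any kind between them, the spacing classically bound by RXR and RAR, on both strands. It was found in 0.0974% of all windows and, among the receptors, in Rarb alone. Rarb was already known as a retinoic acid target, and the variants allowed include both half-sites of its match, so that match is a description and not a test. Among 15 genes of the retinoid list that have a window, the motif was found in Cyp26a1, which encodes a retinoic acid degrading enzyme. Spacings of 4 and 1 bases were found in 0.0822% and 0.222% of all windows and in 0 receptor windows. A single AGGTCA, which a repeat may contain, was found in 16.3% of all windows and in 10 of the 45 receptor windows, Rarg among them. Below, 120 bases of each promoter are printed in the direction of the gene, with the half-sites of the repeat in capitals, to show the repeat in Rarb and Cyp26a1, whose stretches end at the gene start. For Rarg the first 120 bases of its window are printed, a different stretch, and the capitals mark its single half-site, on the other strand 225 to 220 bases before the gene start. In Cyp26a1 the repeat is read on the other strand.

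Rarb chr14:16575477-16575596, minus strand: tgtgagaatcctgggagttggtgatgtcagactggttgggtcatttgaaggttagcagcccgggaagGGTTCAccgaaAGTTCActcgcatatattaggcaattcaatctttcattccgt
Cyp26a1 chr19:37697688-37697807, plus strand: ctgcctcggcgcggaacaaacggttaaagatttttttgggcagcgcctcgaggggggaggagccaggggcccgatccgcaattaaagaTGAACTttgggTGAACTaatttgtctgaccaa
Rarg chr15:102257653-102257772, minus strand: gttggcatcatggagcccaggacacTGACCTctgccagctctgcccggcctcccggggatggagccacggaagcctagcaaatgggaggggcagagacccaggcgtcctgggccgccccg

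The repeat of Rarb lies 53 to 37 bases before the gene start and that of Cyp26a1 32 to 16 bases before it. A match is a run of letters and not a measured binding site, and the missing match in Rarg says only that these letters are not in its window. Cyp26a1, chosen for its match, had 53.1, 39.5 and 22.5 CPM in CCl4 livers, against 17.2, 9.78 and 27.0 CPM in controls. CCl4 replicate 3 lay within the control range, and the gene did not pass (log2 fold change 1.09, edgeR adjusted p = 0.161).

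Among 21 genes of retinoid response and handling, 16 were tested, 7 rose and 2 fell (median 0.66). Rdh16, a hepatic retinol dehydrogenase gene, had 43.5, 43.1 and 68.1 CPM in CCl4 livers, against 94.3, 113 and 123 CPM in controls (log2 fold change -1.09, edgeR adjusted p = 0.0122). Stra6l, a retinol-binding-protein receptor gene and the most abundant of those called, fell by 0.21 (edgeR adjusted p = 0.0217), and its call was lost without control replicate 1 (0.0662) or 2 (0.0636), which left 1 gene lower in the list. Aldh1a2, a retinoic acid synthesising enzyme, and Lrat, which esterifies retinol in stellate cells and is 1 of the stellate markers above, were chosen after their values were seen. Aldh1a2 had 2.07, 2.77 and 1.38 CPM in CCl4 livers, against 0.373, 0.324 and 0.159 CPM in controls (log2 fold change 2.83, edgeR adjusted p = 4.77e-04). Lrat had 45.1, 39.2 and 40.2 CPM in CCl4 livers, against 24.1, 25.4 and 24.3 CPM in controls (log2 fold change 0.75, edgeR adjusted p = 5.06e-05). Aldh1a2 and Lrat lay higher in every CCl4 library, beside the rise in stellate cell markers, whose part was not tested.

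Of the retinoid X receptors Rxrb fell, and Rxra and Rxrg did not pass the test. Rxra had 393, 379.9 and 342 CPM in CCl4 livers, against 423, 436 and 396 CPM in controls. Its groups did not overlap, but the log2 fold change of -0.17 (interval -0.33 to -0.01) did not pass (edgeR adjusted p = 0.0802). Rxrb, a ubiquitous partner, had 22.3, 21.8 and 22.3 CPM in CCl4 livers, against 26.9, 26.4 and 26.3 CPM in controls, with tight groups that did not overlap (log2 fold change -0.26, edgeR adjusted p = 0.00678; 0.173 with library size alone). Rxrg had 4.99, 3.91 and 6.19 CPM in CCl4 livers, against 5.75, 6.81 and 6.52 CPM in controls. CCl4 replicate 3 lay among the controls (log2 fold change -0.34, edgeR adjusted p = 0.148), and without it the log2 fold change was -0.52 (edgeR adjusted p = 0.0243).

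Thyroid hormone receptor beta (Thrb), the main hepatic isotype, had 38.8, 37.7 and 35.7 CPM in CCl4 livers, against 58.7, 57.1 and 60.7 CPM in controls. All CCl4 libraries lay below all controls (log2 fold change -0.65, interval -0.78 to -0.53, edgeR adjusted p = 3.62e-05). Thyroid hormone receptor alpha (Thra), the isotype of heart, bone and many other tissues, had 18.95, 18.7 and 21.0 CPM in CCl4 livers, against 21.7, 26.0 and 19.2 CPM in controls. It overlapped (log2 fold change -0.19, edgeR adjusted p = 0.197), and 5.70% of its exon bases lie opposite Nr1d1. ROR alpha (Rora), which activates genes that REV-ERB receptors repress, had 90.02, 86.6 and 82.9 CPM in CCl4 livers, against 128, 109.8 and 140.3 CPM in controls, without overlap (log2 fold change -0.54, edgeR adjusted p = 9.45e-04). The vitamin D receptor gene, Vdr, had 3, 9 and 2 counts in CCl4 livers, against 1, 1 and 0 counts in controls, too few to be tested.

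Of 14 thyroid hormone target and handling genes 11 were tested, 6 fell and 2 rose (median -0.29). Me1, the malic enzyme gene and a classical hepatic thyroid hormone target, had 104, 121 and 142 CPM in CCl4 livers, against 192, 247 and 249 CPM in controls (log2 fold change -0.91, edgeR adjusted p = 0.00214). Dio1, which encodes the deiodinase that marks hepatic thyroid hormone action and was chosen after its values were seen, had 72.0, 86.4 and 48.1 CPM in CCl4 livers, against 125, 117 and 106 CPM in controls (log2 fold change -0.75, edgeR adjusted p = 0.0454), a call that 7 of 14 alternatives kept. Cyp17a1, a steroid hydroxylase gene, rose by 1.61 (edgeR adjusted p = 0.00712), and Ttr, the thyroxine carrier and also a hepatocyte marker above, by 0.24 (edgeR adjusted p = 0.0176). The Ttr call, and with it the second of the 2 rises, was lost without CCl4 replicate 2 (0.0543), control replicate 1 (0.0780) or control replicate 3 (0.0673).

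Genes that ROR alpha and the REV-ERB receptors share as targets or that belong to the clock numbered 9, all tested, with 4 lower and 1 higher (median -0.07); a second rose without CCl4 replicate 3 or control replicate 2. Elovl3, a fatty acid elongase gene, had 7.06, 10.7 and 4.62 CPM in CCl4 livers, against 585, 586 and 546 CPM in controls, a log2 fold change of -6.26 (interval -7.03 to -5.49, edgeR adjusted p = 8.17e-05). Avpr1a, the hepatic vasopressin receptor gene, fell by 1.01 (edgeR adjusted p = 3.33e-05). Usp2, a deubiquitinase gene of clock output, rose by 1.16 (edgeR adjusted p = 0.0124; 0.0526 without control replicate 1). The time of day of collection is not given in the labels.

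Of the steroid receptors the corticoid receptors fell. The glucocorticoid receptor gene (Nr3c1), which controls gluconeogenesis and amino acid breakdown in liver, had 99.1, 96.7 and 102 CPM in CCl4 livers, against 127, 119.9 and 144 CPM in controls. The mineralocorticoid receptor gene (Nr3c2), its close relative, had 9.37, 9.69 and 10.4 CPM in CCl4 livers, against 15.4, 14.5 and 19.5 CPM in controls. Neither overlapped, and the log2 fold changes were -0.39 for Nr3c1 (edgeR adjusted p = 0.00199) and -0.75 for Nr3c2 (edgeR adjusted p = 0.00102). Estrogen receptor alpha (Esr1), the main estrogen receptor of liver, had 32.7, 33.8 and 25.8 CPM in CCl4 livers, against 25.2, 32.5 and 24.2 CPM in controls, which overlapped (log2 fold change 0.17, interval -0.16 to 0.50, edgeR adjusted p = 0.374).

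Of 18 glucocorticoid target and handling genes 16 were tested, 5 rose and 4 fell (median -0.15). Sgk1, a kinase gene induced by corticoids and by other stimuli, had 43.5, 46.5 and 33.2 CPM in CCl4 livers, against 17.7, 18.6 and 19.03 CPM in controls (log2 fold change 1.16, edgeR adjusted p = 1.78e-04). Tdo2, the tryptophan dioxygenase of hepatocytes, fell by 0.58 (edgeR adjusted p = 1.08e-04). Among 11 estrogen and vitamin D genes 6 were tested, 3 fell and 1 rose (median -0.15). Lifr, the receptor of leukemia inhibitory factor, had 187, 194 and 209 CPM in CCl4 livers, against 569, 589.6 and 481 CPM in controls (log2 fold change -1.47, edgeR adjusted p = 4.29e-06). Sult1e1, the estrogen sulfotransferase gene, had 0.706, 0.692 and 3.00 CPM in CCl4 livers, against 0.213, 0.108 and 0.106 CPM in controls (log2 fold change 3.31, edgeR adjusted p = 0.0187), and its call, the 1 rise of the list, was lost without control replicate 2 (0.0658) or 3 (0.0711).

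The orphan receptors were mixed. TR4 (Nr2c2), a repressor and activator at direct repeats, had 11.6, 10.3 and 11.9 CPM in CCl4 livers, against 17.8, 18.7 and 19.7 CPM in controls, without overlap (log2 fold change -0.73, edgeR adjusted p = 2.18e-04). Of its exon bases 31.2% lie opposite other genes, mainly Mrps25, at 10.1 CPM in CCl4 livers and 9.26 CPM in controls. TR2 (Nr2c1), its partner, had 19.4, 19.3 and 15.4 CPM in CCl4 livers, against 21.0, 21.7 and 21.5 CPM in controls, and did not pass although the groups did not overlap (log2 fold change -0.25, edgeR adjusted p = 0.0665). GCNF (Nr6a1), known from germ cells and early development, had 20.5, 17.4 and 14.8 CPM in CCl4 livers, against 25.9, 25.5 and 26.9 CPM in controls, again without overlap (log2 fold change -0.57, edgeR adjusted p = 0.00235).

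Nur77 (Nr4a1), an immediate early gene, had 1.41, 2.72 and 1.67 CPM in CCl4 livers, against 6.49, 3.94 and 10.9 CPM in controls. No library overlapped, but the controls ranged widely (log2 fold change -1.88, interval -2.93 to -0.83, edgeR adjusted p = 0.0146), a call lost without CCl4 replicate 1 (0.0555) or CCl4 replicate 3 (0.0931), and with no filter on low counts (0.0820). Nurr1 (Nr4a2), its relative, had 0.554, 0.495 and 0.590 CPM in CCl4 livers, against 0.586, 0.324 and 1.11 CPM in controls, which enclosed them (log2 fold change -0.30, interval -1.28 to 0.67, edgeR adjusted p = 0.607).

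In the COUP-TF group, Nr2f6, an orphan relative also called EAR2, had 27.4, 26.8 and 33.2 CPM in CCl4 livers, against 33.4, 35.2 and 38.6 CPM in controls. The groups were separated by a narrow gap (log2 fold change -0.30, edgeR adjusted p = 0.0288), a call lost without CCl4 replicate 1 (0.0992), CCl4 replicate 2 (0.106), control replicate 2 (0.0575) or control replicate 3 (0.1003), and with upper quartile scaling (0.0977) or library size alone (0.270). Its exons lie opposite Ocel1 over 54.4% of their bases, at 19.04 CPM in CCl4 livers and 20.8 CPM in controls (edgeR adjusted p = 0.332). COUP-TFII (Nr2f2), a receptor of mesenchyme and venous endothelium, had 48.7, 48.7 and 47.2 CPM in CCl4 livers, against 47.7, 45.1 and 49.2 CPM in controls (log2 fold change 0.03, interval -0.10 to 0.15, edgeR adjusted p = 0.741). It overlapped the controls while the stellate cell markers rose. COUP-TFI (Nr2f1) had 1.01, 0.544 and 1.28 CPM in CCl4 livers, against 0.799, 0.756 and 0.530 CPM in controls (log2 fold change 0.44, interval -0.38 to 1.25, edgeR adjusted p = 0.366).

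ERR alpha (Esrra), a regulator of mitochondrial genes, had 25.1, 27.6 and 29.2 CPM in CCl4 livers, against 23.2, 23.8 and 24.3 CPM in controls. All CCl4 libraries lay above all controls, and the log2 fold change of 0.20 missed the threshold (edgeR adjusted p = 0.0513; 0.0256 without CCl4 replicate 1). HNF4 gamma (Hnf4g), the gut and kidney relative of the hepatic HNF4 alpha, had 0.806, 0.594 and 0.688 CPM in CCl4 livers, against 0.426, 0.378 and 0.212 CPM in controls, from 16, 12 and 14 counts in CCl4 livers and 8, 7 and 4 counts in controls. It rose (log2 fold change 1.03, interval 0.21 to 1.84, edgeR adjusted p = 0.0462), but leaving out any 1 of the 6 libraries lost the call (edgeR adjusted p of 0.0639 without control replicate 1 to 0.154 without control replicate 3), as did DESeq2 (0.268) and no filter on low counts (0.116).

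Of 11 target genes of orphan receptors, 4 fell and 1 rose (median -0.12), and 2 rose without CCl4 replicate 1. The falls include the receptor Nr0b2 and Cyp8b1, which are both in the FXR list too. Cyp8b1, the sterol 12-alpha-hydroxylase that sets the bile acid mix and a known LRH-1 target, had 123, 126 and 105 CPM in CCl4 livers, against 337, 533 and 286 CPM in controls (log2 fold change -1.71, edgeR adjusted p = 0.00489). Lrp6, a Wnt coreceptor gene, fell by 0.44 (edgeR adjusted p = 0.00129). Spp1, the osteopontin gene, had 224, 260.4 and 303 CPM in CCl4 livers, against 56.6, 76.3 and 41.8 CPM in controls (log2 fold change 2.17, edgeR adjusted p = 0.00184). Spp1 is also the most abundant of the cholangiocyte markers given above.

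Unequal change within subfamilies shifted the isotype shares, computed per library from CPM per kb. Ppara held 73.0, 70.0 and 66.1% of the PPAR sum in CCl4 livers, against 85.8, 85.5 and 85.01% in controls, a difference of -15.7 percentage points. The PPAR sum itself was 18.9 ± 2.01 CPM per kb in CCl4 livers and 37.1 ± 3.16 CPM per kb in controls (SD, n = 3 each). Within the RARs, Rarg held 41.0, 38.6 and 43.8% in CCl4 livers, against 22.0, 26.8 and 25.2% in controls. Rara held 50.8, 55.3 and 47.9% in CCl4 livers, against 74.1, 69.0 and 71.6% in controls. No library of 1 group reached the other for these shares, and the RAR sum was 8.07 ± 0.295 CPM per kb in CCl4 livers and 6.57 ± 0.372 CPM per kb in controls.

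Smaller shifts were seen in the thyroid hormone receptors, where Thrb held 54.4 ± 2.59% in CCl4 livers and 62.2 ± 4.30% in controls, and in the xenobiotic pair, where Nr1i3 held 18.6 ± 1.64% in CCl4 livers and 25.2 ± 1.56% in controls. Rxra held 89.7 ± 1.27% of the RXR sum in CCl4 livers and 89.0 ± 0.474% in controls, with overlapping libraries. Exact two-sided permutation tests gave p = 0.1 for 13 of 18 shares (adjusted 0.138), which is the smallest p that 3 against 3 libraries allow. That includes the shares of Ppara, Rara, Rarg, Thrb and Nr1i3, while Rxra had an exact permutation p of 0.5 (adjusted 0.529). Shares within a subfamily sum to a fixed total, so the 18 tests are not independent. Where a subfamily is a pair, both of its shares give the same test.

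**Figure D3:**
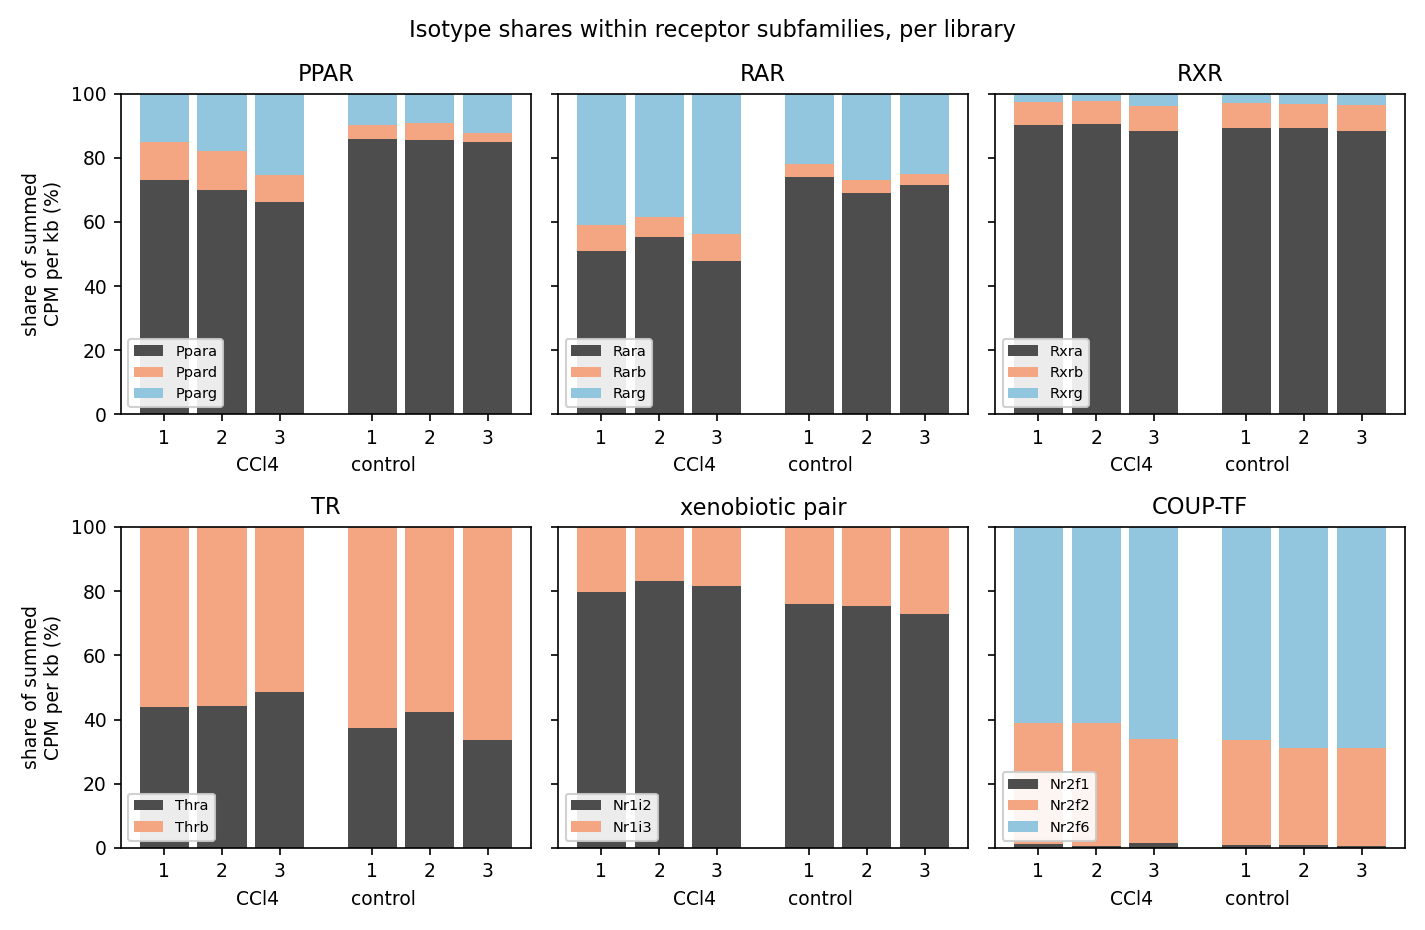
Share (%) of each isotype in the summed CPM per kb of its subfamily, 1 bar per library, CCl4 replicates left of control replicates. The Ppara and Rara segments are shorter in every CCl4 library, and Rxra fills 88.3 to 90.6% of the RXR bars in CCl4 livers.

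Coregulators are the proteins that receptors recruit. Of 18 coactivator genes 6 fell and 2 rose (median -0.14; 4 fell and 3 rose with upper quartile scaling or library size alone), and of 13 corepressor genes 6 fell and 0 rose (median -0.19; 1 rose without CCl4 replicate 1 or control replicate 2, and 3 fell with library size alone), while 20.1% of all genes fell and 21.2% rose. Both medians are about the size of the shift of all genes with library size alone, 0.15. Ncoa2, a p160 coactivator gene, had 54.2, 49.0 and 52.5 CPM in CCl4 livers, against 68.3, 70.4 and 73.2 CPM in controls (log2 fold change -0.44, edgeR adjusted p = 3.32e-04). Kat2b, an acetyltransferase gene, fell by 0.37 (edgeR adjusted p = 9.28e-04) and Ncor1, the corepressor of unliganded thyroid hormone and retinoic acid receptors, by 0.43 (edgeR adjusted p = 3.17e-04). Ncoa7 rose by 0.57 (edgeR adjusted p = 0.0162; 0.0601 without CCl4 replicate 2). The coactivator rises numbered 0 without CCl4 replicate 2 and 1 without CCl4 replicate 1, control replicate 2 or control replicate 3.

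Of 15 nuclear receptors outside the set 7 were tested, 3 fell and 1 rose (median -0.19). REV-ERB alpha (Nr1d1), the clock repressor whose exons face those of Thra, had 56.8, 47.9 and 61.2 CPM in CCl4 livers, against 129.8, 149 and 139.8 CPM in controls (log2 fold change -1.34, edgeR adjusted p = 1.44e-05). Esrrg, the ERR gamma gene, chosen after its values were seen, had 0.0504, 0.0495 and 0.344 CPM in CCl4 livers, against 2.66, 3.30 and 2.33 CPM in controls (log2 fold change -4.16, edgeR adjusted p = 1.55e-04). Its relative Esrra lay higher in every CCl4 library, as given above.

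**Figure D4:**
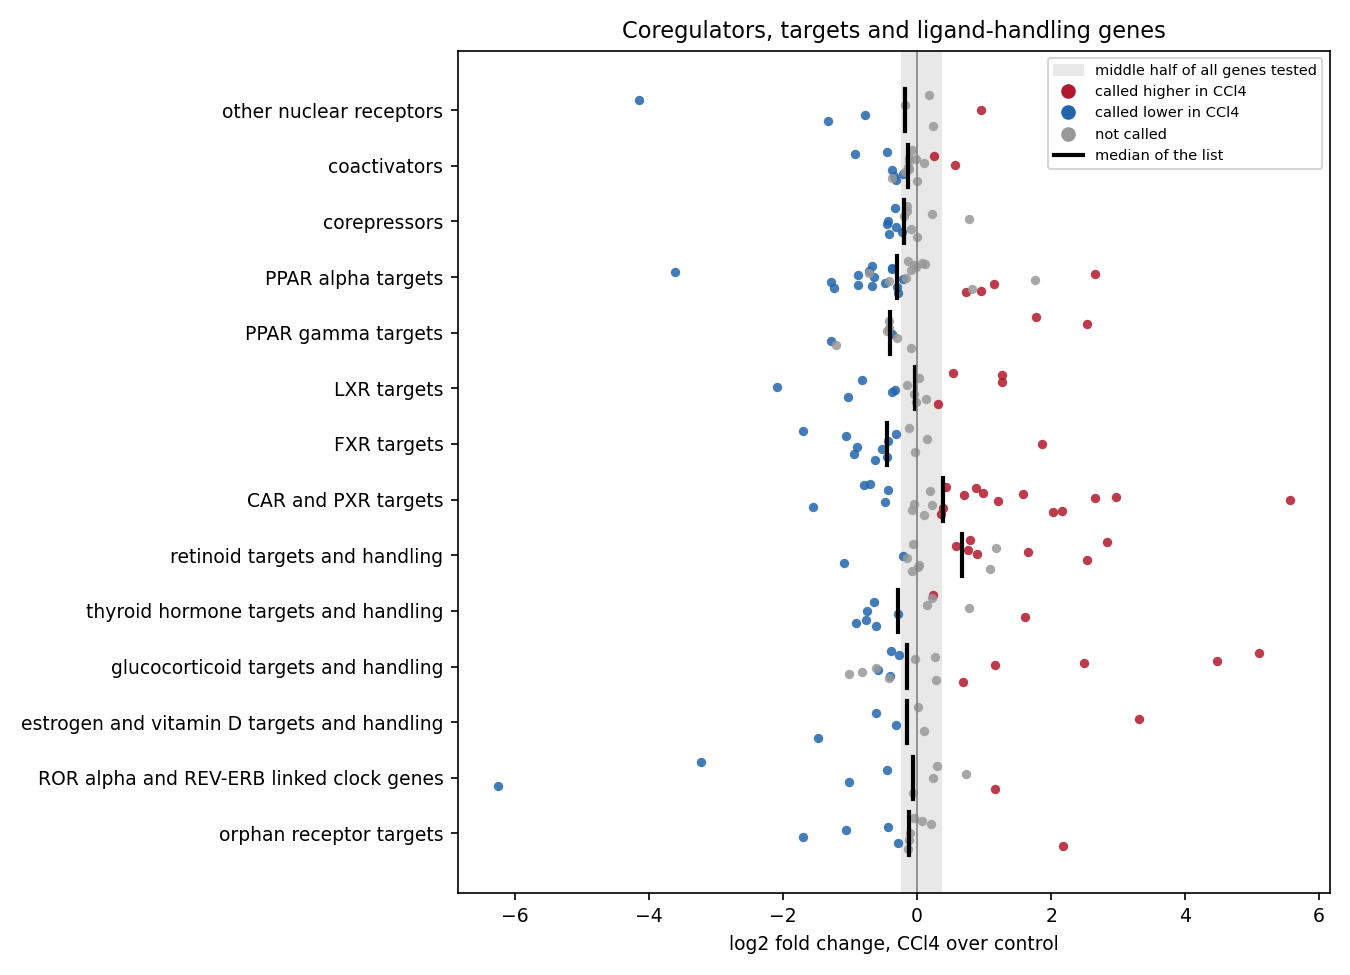
log2 fold change, CCl4 over control, of each tested gene of the coregulator, target and ligand-handling lists, with the list median as a black bar and the middle range of all genes tested in grey. The medians of the CAR and PXR list (0.38) and the retinoid list (0.66) lie to the right, and those of the FXR (-0.44) and PPAR gamma (-0.40) lists to the left.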

How the data were processed

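Liver RNA of 6 samples was sequenced. Per the labels' protocols, total RNA was made into libraries for messenger RNA, and per the series' design text and the submitters' processing notes, filtered reads were aligned with HISAT2 and counted per gene with featureCounts. The values deposited are whole-number counts for each gene without normalization. Versions, build, strand setting and multimapping rules are not given in the sources used. PCR copies cannot be told from molecules.

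Symbols, exon lengths and overlaps came from GENCODE M21 by gene identifier (52083 of 55359 matched). The other 443 rows, without an Ensembl identifier, held 0.543 to 0.679% of counts per library. They entered the library totals and the fit but no list. The group effect was tested with edgeR 4.0.16 under R 4.3.3 (filterByExpr, TMM, robust glmQLFit, glmQLFTest) over 15579 genes, with Benjamini-Hochberg adjustment and a threshold of 0.05. Tables and exact permutation tests were made in Python 3.11.15. CPM values use TMM-scaled totals, and CPM per kb divides by the merged exon length. The test was checked on simulated counts. It called 66 of 95 genes with a true log2 change of size 1, and 92 of 95 with size 2. It also called 18 of 14703 unchanged genes. A receptor that did not pass is therefore not shown to be unchanged. Alternatives were DESeq2 1.42.0, limma-voom (limma 3.58.1), other scalings and filters, a replicate block, and each library left out.

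The receptors, gene lists and marker lists were chosen with earlier results of these data known. All 33 receptors are given. From each list the text names the called gene of smallest adjusted p in each direction and the most abundant called gene (for markers, the most abundant gene and the called gene of smallest adjusted p). Some genes that the rule picks are not reported here. Other examples are said to be chosen after their values were seen.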

Additional observations from a re-analysis of the deposited data

How the results depend on the processing

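Each receptor was refitted under 14 alternatives. Of the 18 receptor calls 12 were kept under all of them (2 higher, 10 lower) and 13 without each library in turn; the report names the others. The number of receptors called higher was 3, and 7 with library size alone, the setting that moved the median of all genes most; elsewhere it was 2 to 4. The number called lower was 15, and 12 to 15 elsewhere. With each library left out in turn these ranged from 2 to 3 and from 12 to 14. Rxra (edgeR adjusted p = 0.0366) and Nr2c1 (0.0329) passed with no filter on low counts, and with library size alone Ppard (0.0486), Nr1h3 (0.0425), Nr2f2 (0.0291) and Esrra (0.00738). The sign turned only for receptors without a call. Pparg (main value -0.05) was 0.0335 with upper quartile scaling and 0.0993 with library size alone, and ranged from -0.399 to 0.151 with a library left out. Nr1h4 (-0.04) was 0.0468 and 0.109 under these scalings and ranged from -0.107 to 0.0295. Leave-one-out ranges were -0.0248 to 0.0504 for Nr1h3, -0.0133 to 0.0490 for Nr2f2 and -0.637 to 0.253 for Nr4a2, which each crossed 0. The cause was not tested.

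From CPM not divided by length, the shares differed by -18.3 points for Ppara, 12.0 for Ppard, 8.56 for Nr1i2 and -8.56 for Nr1i3, which follows from the unequal exon lengths.

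Replicate numbers are shared by the groups. Same-numbered samples correlated at 0.0483, 0.00396 and 0.0635 (replicates 1, 2 and 3) in their deviations from the group means. The other pairs ranged from -0.0803 to 0.0365. Each CCl4 library correlated best with the control of its own number, while control replicate 2 correlated best with CCl4 replicate 1. Correlations this small, from 3 libraries a group, cannot decide whether the numbers mark a pairing. With the replicate block 4 receptors were higher and 15 lower: Ppard (edgeR adjusted p = 0.0147), Rxra (0.0414) and Esrra (0.0493) passed, and Nr1h2 (0.0608) and Hnf4g (0.0638) did not.

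Upper quartile scaling and library size alone each called 2 genes higher, against 1, among the other nuclear receptors, the estrogen and vitamin D genes and the clock genes, 2 (upper quartile) and 3 (library size) orphan receptor targets higher, against 1, and 1 retinoid gene lower, against 2. DESeq2 called 5 PPAR gamma targets lower (2 with edgeR) and 7 glucocorticoid genes lower (4 with edgeR). Depth limits Vdr, Hnf4g, Nr2f1 and Nr4a2, which had at most 26 counts in any library. With 3 libraries a group, single outlying libraries could not be tested.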
